A study of Homo sapiens with 18 samples.

Results

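The genes described here are the matrix metalloproteinases and one collagen, as measured in 3 breast cancer cell lines after treatment with antisense oligonucleotides. The rule took every array feature whose platform gene symbol names an integrin, a collagen, a laminin or a matrix metalloproteinase with a number, and kept, per gene, the feature with the highest mean over the 18 arrays. It found 19 genes among the 14884 distinct symbols on the array. Of these, 18 were matrix metalloproteinases (MMP1, MMP8, MMP10 to MMP17, MMP19 to MMP21 and MMP24 to MMP28) and 1 was the collagen COL26A1. RefSeq holds 98 genes whose symbols match the rule, but 0 integrins and 0 laminins had a named feature, and neither did the gelatinases MMP2 and MMP9 or MMP3 and MMP7, so those genes are not analysed here. The set is therefore called the matrix metalloproteinases and COL26A1 below.

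Matrix metalloproteinases are zinc-dependent proteases, secreted or held at the cell surface, that cut collagens, laminins and other proteins of the extracellular matrix. They are made as inactive proenzymes, are activated by removal of a prodomain, and are blocked by the tissue inhibitors of metalloproteinases (TIMPs). In breast tumours many of the secreted members come mainly from stromal cells, whereas the membrane-type members are also made by the carcinoma cells and carry proteolysis to their surface.

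The assay was the Affymetrix Human Gene 2.0 ST array, with 3 arrays in each of 6 groups. Cells of the HER2-positive line SKBR3 received an antisense oligonucleotide (ASO) that targets LINC01269, a long non-coding RNA, or else a control ASO. Cells of the triple-negative lines MDA-MB-231 or MDA-MB-468 received an ASO that targets another such RNA, AL078604.2, or else a control ASO. The comparisons ask how lowering each RNA changes gene expression in these lines. All ASOs were GapmeRs, which direct RNase H to the target RNA, given at 15 nM for 48 h with the reagent TransIT-BrCa. Every group thus carried an ASO and the reagent, and an effect of a target and an effect of the single ASO used against it cannot be told apart. Neither target has a named feature, so its knockdown was not analysed here.

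The values were read as log2 expression per feature. The median of an array was 4.56 to 4.63 for the SKBR3 label, 5.41 to 5.43 for the MDA-MB-231 label and 5.21 to 5.24 for the MDA-MB-468 label, so levels are also given as percentiles among the 53617 features of the same array. Replicate arrays correlated at 0.985 to 0.992. Nothing in the labels says that replicates came from separate cultures, so p-values measure the spread between these arrays, which may be technical. Some markers went against the line labels and others with them. The epithelial gene EPCAM, known to be low in MDA-MB-231, stood at percentiles 98.9, 99.2 and 99.3 in the control arrays labelled SKBR3, MDA-MB-231 and MDA-MB-468, the mesenchymal gene VIM at 76.1, 76.6 and 82.1, and GRB7 and STARD3, neighbours of the ERBB2 gene amplified in SKBR3, at 79.1, 81.3 and 78.8 and at 83.6, 84.9 and 83.2. With the labels, the mesenchymal genes AXL, SNAI2 and ZEB1 were higher in MDA-MB-231 (83.2, 78.7 and 45.8) than in MDA-MB-468 (60.1, 61.3 and 33.3). Their SKBR3 percentiles of 80.7, 75.7 and 43.7 lay near those of MDA-MB-231. The mesenchymal gene TWIST1, like VIM, was lower in MDA-MB-231 than in MDA-MB-468, and ZEB2 was nearly level between them. RB1, known to be lost in MDA-MB-468, went with the labels and was lowest there (24.9, against 47.7 and 60.3). EGFR, listed with RB1 as a known cell line feature, did not set MDA-MB-468 apart. It stood at 98.96 in SKBR3, 98.24 in MDA-MB-231 and 98.67 in MDA-MB-468. The basal genes were split: KRT14 was higher in MDA-MB-231 (89.2) than in MDA-MB-468 (79.3), and KRT5 was lower (73.4 against 85.8). Line names below therefore stand for arrays labelled with that line. Fibroblast, endothelial and leukocyte lists had 8 of 16 members named. Of the fibroblast genes, DCN lay between percentiles 4.47 and 6.72 over the lines, LUM between 15.0 and 32.6 and THY1 between 61.2 and 63.9. The leukocyte genes LYZ and CD14 lay between 21.5 and 43.7, and the endothelial genes PECAM1, VWF and KDR between 32.4 and 76.3.

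Of the 19 members, 11 had promoters in the RefSeq table of GRCh38.p14, taken here as the 250 bases before the start site. The motif TGANTCA, a loose form of the AP-1 site with any base at N, reads the same on both strands. It was searched because AP-1 sites are classic inducible elements of secreted metalloproteinase genes. The motif occurred in 2 of the 11, MMP10 and MMP20, and in 6.6% of 27305 promoters of the same length. Both matches read TGAATCA, and the stricter site with only G or C at N was not counted separately. The motif TATAAA on either strand, a choice made after the sequences had been seen, occurred in 5 of the 11 and in 11.1% of all promoters. The promoters of these 2 dim genes are shown beside those of MMP14 and MMP15, a pair of membrane-type members well above the array median, because their base composition differs so much. Each runs 5′ to 3′ on the gene's strand and ends at the base before the start site, with matches to either motif in capitals.
MMP10, chr11:102780629-102780878, minus strand: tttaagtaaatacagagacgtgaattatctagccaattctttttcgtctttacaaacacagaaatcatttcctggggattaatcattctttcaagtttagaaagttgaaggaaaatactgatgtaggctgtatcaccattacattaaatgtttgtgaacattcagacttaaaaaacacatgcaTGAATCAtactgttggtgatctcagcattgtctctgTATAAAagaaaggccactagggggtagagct
MMP20, chr11:102625333-102625582, minus strand: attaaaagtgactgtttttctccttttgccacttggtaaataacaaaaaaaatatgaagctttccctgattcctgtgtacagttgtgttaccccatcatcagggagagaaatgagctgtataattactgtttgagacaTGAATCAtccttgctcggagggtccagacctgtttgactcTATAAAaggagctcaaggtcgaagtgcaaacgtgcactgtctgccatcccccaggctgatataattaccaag
MMP14, chr14:22836335-22836584, plus strand: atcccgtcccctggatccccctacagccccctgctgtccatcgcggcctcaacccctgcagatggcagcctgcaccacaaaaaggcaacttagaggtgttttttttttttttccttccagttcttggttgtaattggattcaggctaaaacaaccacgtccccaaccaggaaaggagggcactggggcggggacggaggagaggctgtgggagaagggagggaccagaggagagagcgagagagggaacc
MMP15, chr16:58025504-58025753, plus strand: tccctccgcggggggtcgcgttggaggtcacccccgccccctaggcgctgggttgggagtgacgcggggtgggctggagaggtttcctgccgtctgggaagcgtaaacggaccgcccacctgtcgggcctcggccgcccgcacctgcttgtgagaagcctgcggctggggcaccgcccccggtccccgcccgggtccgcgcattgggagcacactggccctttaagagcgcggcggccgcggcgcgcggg
The AP-1 match starts 67 bases before the MMP10 start site and 112 bases before that of MMP20, and the TATAAA match 31 and 72 bases before them. MMP14 and MMP15 held neither motif. GC content was 34.4% in MMP10, 41.6% in MMP20, 56.8% in MMP14 and 74.8% in MMP15, against a median of 58.0% over all promoters. Over the 5 members with a promoter that fell below the expression filter described next it ran from 32.8% to 41.6%, and over the 6 that passed it from 56.8% to 77.6%. TATAAA was found in 4 of those 5 and in 1 of those 6. Among those 5, MMP8, MMP10, MMP20 and MMP27 are neighbours on chromosome 11 and may not be independent examples. The other members below the filter have no promoter in the RefSeq table. These GC contents and matches are descriptions of sequence, and a match is not evidence of binding.

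The members fell into a group of moderately bright features and a larger group of dim ones. A feature was tested only where its group mean was above the group's median feature in 1 or more of the 6 groups, a condition that 8 members met (MMP11, MMP14, MMP15, MMP17, MMP21, MMP24, MMP25 and COL26A1) and 11 failed. Percentiles give a feature's place on its own array, and because probes differ in efficiency they set no order of RNA amounts between genes. MMP21, whose protein acts in left-right patterning of the embryo, passed through the MDA-MB-468 groups alone, where its control arrays stood at percentiles 48.7, 53.2 and 53.0. The nearest members outside the threshold were MMP16, with a mean percentile of 46.2 in the MDA-MB-468 control arrays, MMP19 with 45.8 and MMP20 with 45.5 in the MDA-MB-231 control arrays.

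**Figure D1:**
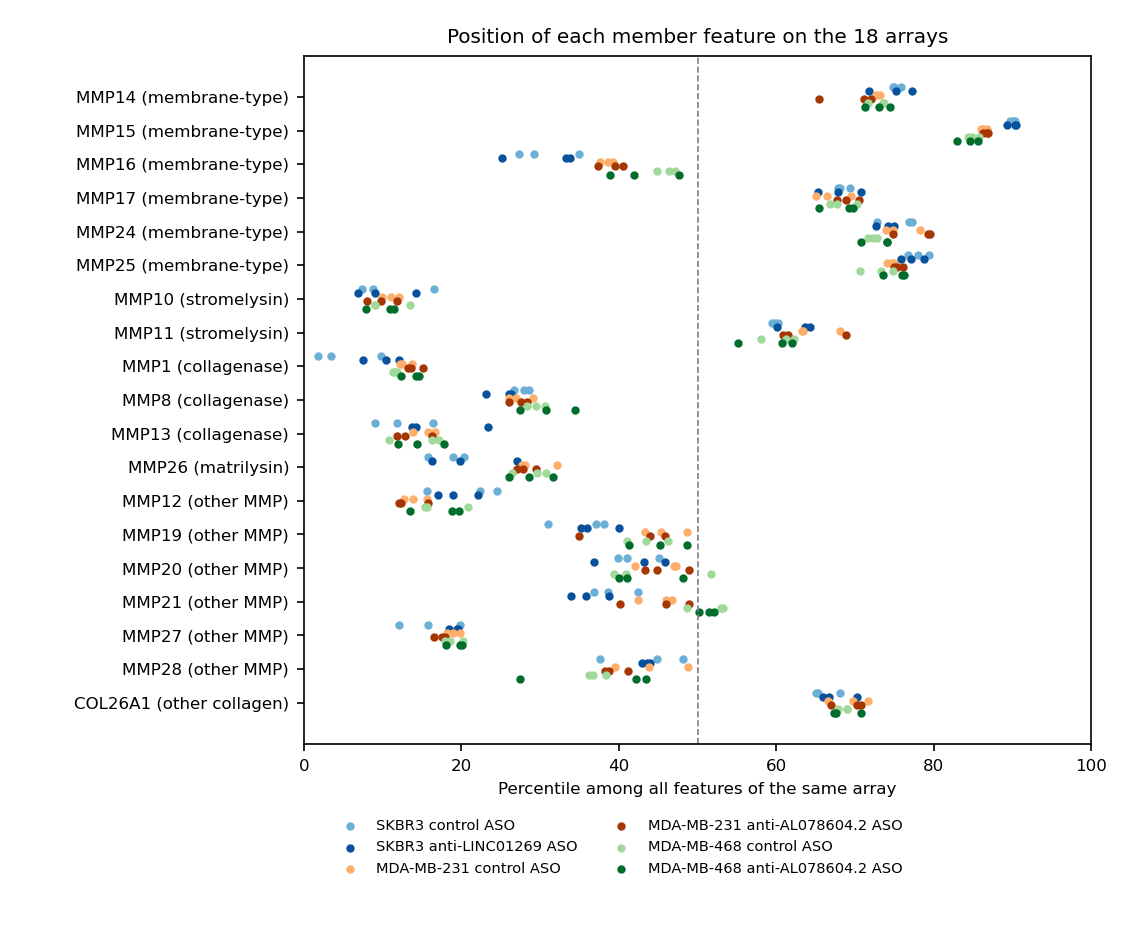
Percentile of each member's feature among all features of the same array (x axis), with 1 point per array, colours for the 6 groups and a dashed line at the array median. MMP15 lies at 83 to 90.5 in all 18 arrays and MMP1 at 1.8 to 15.2.

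Of the 6 membrane-type members, 5 passed the filter by their selected features. MMP15, a transmembrane proteinase, lay between percentiles 83 and 90.5 over the 18 arrays. MMP14, the transmembrane enzyme that activates pro-MMP2 and cuts fibrillar collagen at the cell surface, lay between 65.4 and 77.2. MMP17, held in the membrane by a lipid anchor, lay between 65.0 and 70.8. The selected features of MMP24 and MMP25 lay between 70.7 and 79.5 and between 70.6 and 79.4. Their other features lay lower, at 36.9 to 56.4 for the second of MMP24 and 63.1 to 74.2 for the second of MMP25. The third of MMP25 lay at 39.1 to 51.3 and failed the filter. Which of these features reads the named gene was not tested, as described below. The remaining membrane-type member, MMP16, was below the median in all 18 arrays (25.2 to 47.7). Among the other members that passed, the furin-activated stromelysin MMP11 lay at 55.2 to 68.8, and COL26A1, which encodes a short collagen, at 65.1 to 71.6.

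The 3 collagenases, which make the first cut in fibrillar collagen, all stayed low. MMP1 lay between percentiles 1.8 and 15.2, MMP8 between 23.2 and 34.5 and MMP13 between 9.0 and 23.4. MMP1 is known to be abundant in MDA-MB-231, yet its percentiles in the 3 MDA-MB-231 control arrays were 12.5, 13.8 and 12.2, near the 11.8, 11.6 and 11.3 of the MDA-MB-468 controls. The SKBR3 control arrays gave 1.8, 3.4 and 9.8. The stromelysin MMP10 (6.9 to 16.6), the macrophage elastase MMP12 (12.1 to 24.6) and the matrilysin MMP26 (15.8 to 32.2) were dim as well. MMP1, MMP8, MMP10, MMP12, MMP13, MMP20 and MMP27 are neighbours on chromosome 11 in RefSeq, and 0 of these 7 passed the filter. MMP20, the enamel proteinase of developing teeth, reached the highest percentiles of them (36.9 to 51.7) and exceeded the median in 1 of the 18 arrays. Signals this low include background, and a difference in RNA at such levels may not be detectable.

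None of the 8 tested members passed the test between the anti-lncRNA ASO and the control ASO in any line. The count was 0 of 8 in SKBR3, where 0% of the 29855 features tested passed, 0 of 8 in MDA-MB-231, where 0.171% passed, and 0 of 8 in MDA-MB-468, where 0.00670% passed (limma, Benjamini-Hochberg adjusted p under 0.05). At an unadjusted p under 0.05 the counts were also 0 of 8 in each line, against 9.16%, 9.35% and 10.5% of all features. The median log2 difference of the members was -0.02 in SKBR3, 0.02 in MDA-MB-231 and 0.00 in MDA-MB-468, and that of all features tested was 0.01, 0.01 and -0.00. The 95% intervals of the 8 members together spanned log2 differences from -0.44 to 0.49 in SKBR3, from -0.50 to 0.51 in MDA-MB-231 and from -0.36 to 0.43 in MDA-MB-468. In simulated arrays of the same design, limma recovered 38 of 67 genes changed 1.5-fold and 60 of 67 changed 2-fold in SKBR3, 40 and 55 in MDA-MB-231, and 35 and 59 in MDA-MB-468. A further 66 genes per line were changed 3-fold, and each gene had the same normal noise in every group. More changed genes loosen the adjusted cutoff, and real groups differed in spread, so these recoveries may be too high for the real arrays. In these bulk extracts, fewer cells making an RNA and less RNA per cell cannot be told apart.

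**Figure D2:**
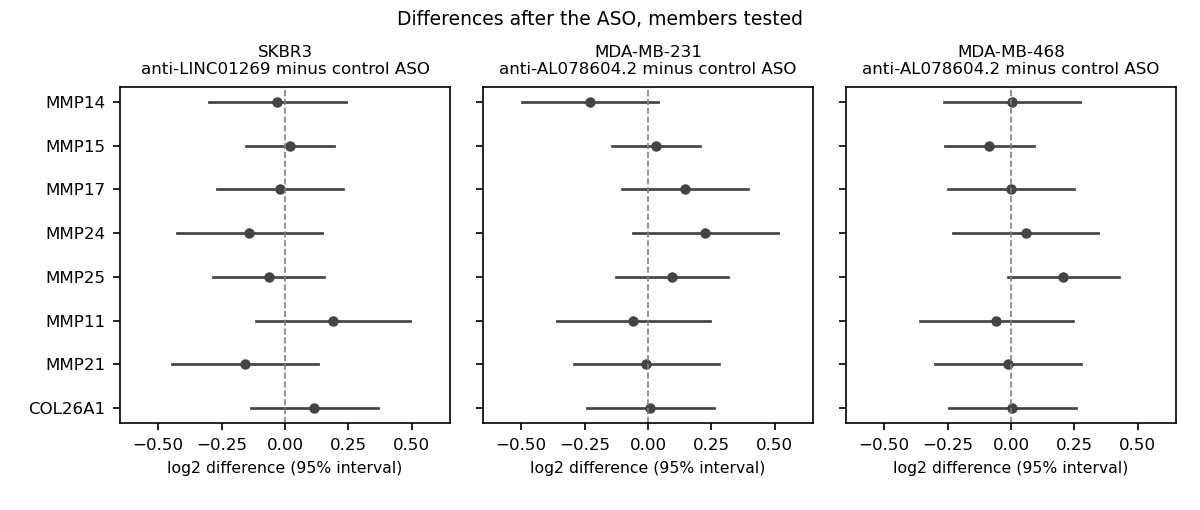
Log2 difference of anti-lncRNA ASO minus control ASO (x axis) for the 8 tested members in each line, with points for limma estimates and bars for 95% intervals. Every interval includes 0, and the lowest estimate is -0.23 for MMP14 in MDA-MB-231.

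MMP14 had the lowest estimate of any tested member. In MDA-MB-231 its log2 values were 6.75, 6.80 and 6.76 with the control ASO and 6.72, 6.65 and 6.25 with the anti-AL078604.2 ASO. The groups did not overlap, but 2 of the 3 ASO arrays lay just under the controls and the third lay well below them. The difference was -0.23 (SE 0.13, 95% interval -0.50 to 0.04, limma adjusted p = 0.635), and without the third ASO array it was -0.08. In MDA-MB-468 the control values of 6.49, 6.66 and 6.65 and the ASO values of 6.74, 6.61 and 6.47 were interleaved (0.00, adjusted p = 0.996). In SKBR3 the controls were 6.23, 6.23 and 6.30 and the anti-LINC01269 arrays 6.43, 6.28 and 5.96 (-0.03, adjusted p = 0.969). The ASO groups were more spread than the controls in both MDA-MB-231 (SD 0.25 against 0.03) and SKBR3 (SD 0.24 against 0.04).

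MMP15 had the smallest standard error of the 8 members (0.08). Its difference was 0.02 in SKBR3 (95% interval -0.15 to 0.19), 0.03 in MDA-MB-231 (-0.14 to 0.20) and -0.09 in MDA-MB-468 (-0.26 to 0.09). MMP17 values in MDA-MB-231 were 6.52, 6.31 and 6.22 with the control ASO and 6.41, 6.60 and 6.48 with the anti-AL078604.2 ASO, and the groups overlapped. Its difference was 0.14 there (SE 0.12, limma adjusted p = 0.792), -0.02 in SKBR3 and 0.00 in MDA-MB-468.

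MMP24 and MMP25 each have more than 1 named feature, and the features of a gene did not give the same sign. Feature numbers on this platform run in order along each strand, so neighbouring numbers show where a feature lies. The selected feature of MMP24, number 16918681, had 0 plus-strand and 12 minus-strand genes among its numbered neighbours, although RefSeq places MMP24 on the plus strand. Its second feature, 16913077, had 13 and 1. Every other member feature whose gene has a strand in the RefSeq table lay mostly among genes of its own strand. The selected feature of MMP25, 16823275, and its second, 16823279, each had 1 plus-strand and 16 minus-strand neighbours, and the third, 16815342, had 16 and 0. The probe strand is not given in the sources used here, so which transcript the selected features read was not tested.

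In MDA-MB-231 the selected MMP24 feature read 7.25, 6.93 and 6.86 with the control ASO and 7.41, 7.36 and 6.95 with the anti-AL078604.2 ASO. The groups overlapped, and the difference of 0.23 (95% interval -0.06 to 0.51) had a limma adjusted p of 0.678. The second MMP24 feature read 5.74, 5.62 and 5.28 against 5.44, 5.55 and 5.62, a difference of -0.01. In MDA-MB-468 the same 2 features gave 0.06 and -0.13, and in SKBR3 -0.14 and 0.08. The estimates of the 2 MMP24 features thus differed in sign in each line. In MDA-MB-231, however, the 95% interval of the second feature, -0.38 to 0.37, contained 0.23. Whether the features disagree was not tested.

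The selected MMP25 feature read 6.63, 6.76 and 6.42 in the MDA-MB-468 controls and 6.66, 6.89 and 6.88 with the ASO, a difference of 0.21 (SE 0.10, limma adjusted p = 0.510). The second feature read 6.31, 6.33 and 6.08 against 6.19, 5.96 and 5.92, a difference of -0.22 (SE 0.15, adjusted p = 0.672). The third read 5.09, 5.13 and 5.11 against 5.16, 5.16 and 5.17, with each ASO array just above the controls. In MDA-MB-231 the selected feature's control arrays (6.94, 6.93 and 6.87) all lay below its ASO arrays (7.0, 6.95 and 7.07), with a difference of 0.09 (adjusted p = 0.878), while the second feature differed by -0.02.

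**Figure D3:**
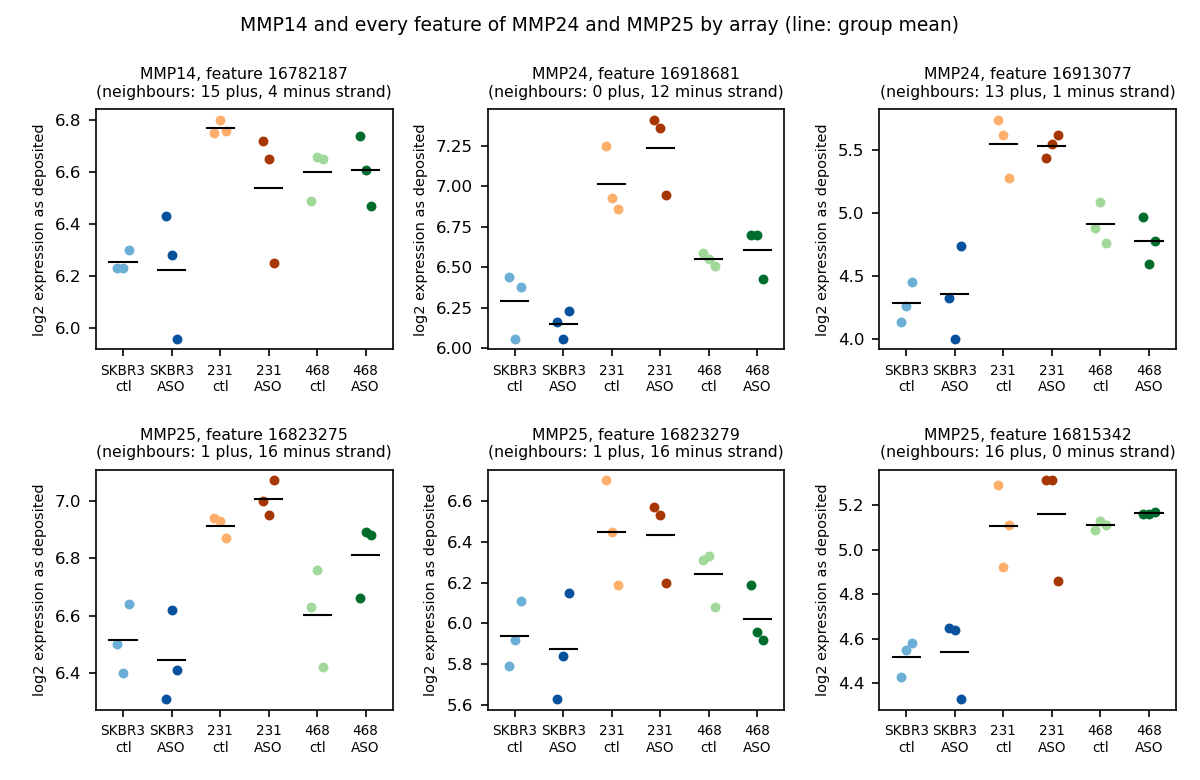
Log2 expression as deposited (y axis, a separate scale in each panel) by group for MMP14 and each named feature of MMP24 and MMP25, with 1 point per array and a line at the group mean. The first 2 MMP25 features differ by 0.21 and -0.22 between the MDA-MB-468 groups.

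MMP11 in SKBR3 had control values of 5.14, 5.09 and 5.17 and anti-LINC01269 values of 5.44, 5.15 and 5.37. The lowest ASO array lay within the control range, and the difference was 0.19 (SE 0.14, limma adjusted p = 0.727). MMP11 differed by -0.06 in both MDA-MB-231 and MDA-MB-468. COL26A1 differed by 0.12 in SKBR3 (adjusted p = 0.814), 0.01 in MDA-MB-231 and 0.01 in MDA-MB-468, and MMP21 by -0.16, -0.01 and -0.01.

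The difference between the responses of MDA-MB-231 and MDA-MB-468 to the anti-AL078604.2 ASO was tested for the same 8 members, and 0 passed in limma, as did 0% of all features. At an unadjusted p under 0.05 the count was 0 of 8, against 4.16% of all features. MMP14 had the lowest value, -0.23 (95% interval -0.61 to 0.15), followed by MMP25 with -0.11. MMP24 (0.17), MMP17 (0.14) and MMP15 (0.12) had the highest, each with an adjusted p of 0.998.

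Groups that do not overlap were counted over all 19 members, dim ones included. In SKBR3 the ASO arrays lay below all controls for 1 member, MMP8 (4.82% of all features did so), and above them for 0 (5.95%). In MDA-MB-231 they lay above for 1, MMP25 (7.26%), and below for 2, MMP14 and MMP27 (6.62%). In MDA-MB-468 they lay above for 1, MMP1 (6.92%), and below for 0 (7.09%). The MMP8 arrays read 3.38, 3.32 and 3.26 with the control ASO and 3.24, 3.18 and 3.02 with the anti-LINC01269 ASO. MMP27 in MDA-MB-231 read 3.72, 3.65 and 3.61 against 3.54, 3.59 and 3.51. MMP1 in MDA-MB-468 read 2.97, 2.95 and 2.95 against 2.99, 3.18 and 3.20. Counts of 1 or 2 among 19 members, 5.26% or 10.5%, lay near these backgrounds, and 0 members were separated in the same direction in both triple-negative lines.

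When all 53617 features were tested, the 11 dim members added 0 calls, against 0.00187%, 0.0522% and 0.00373% of features called in SKBR3, MDA-MB-231 and MDA-MB-468. Their log2 differences ran from -0.17 to 0.42 in SKBR3, from -0.24 to 0.10 in MDA-MB-231 and from -0.16 to 0.17 in MDA-MB-468. The highest, MMP1 in SKBR3, rested on control values of 1.34, 1.52 and 2.04 and ASO values of 2.22, 1.85 and 2.08, which overlapped (0.42, SE 0.15, limma adjusted p = 0.473). The controls were themselves more spread than the ASO arrays, at a level near the bottom of the array.

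Control levels were compared between lines after quantile normalization over the 18 arrays, because the deposited medians differ by line. The lines may have been processed separately, so line and processing cannot be told apart. Between MDA-MB-231 and MDA-MB-468, 0 of 8 members passed, against 26.1% of features in limma, and 2 of 8 had an unadjusted p under 0.05, against 37.6% of features. These were MMP15 (0.19, adjusted p = 0.116) and MMP21 (-0.33, adjusted p = 0.0818). The filter admitted MMP21 through MDA-MB-468, where it is high, so its difference here is not counted as a finding about the members. Against MDA-MB-231, 2 members were higher in SKBR3 (15.1% of features were higher) and 0 were lower (16.4%). Against MDA-MB-468, 2 were higher in SKBR3 (17.4%). MMP21 was the only lower member (18.1% of features were lower), and it is likewise not counted as a finding.

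Among the 8 tested members on this scale, MMP15 differed most between SKBR3 and each of the other lines. Its quantile-normalized log2 values were 8.47, 8.43 and 8.54 in SKBR3, 7.88, 7.92 and 7.98 in MDA-MB-231 and 7.65, 7.84 and 7.73 in MDA-MB-468, with no overlap between any 2 lines. SKBR3 exceeded MDA-MB-231 by 0.56 (SE 0.08, limma adjusted p = 0.000127) and MDA-MB-468 by 0.74 (SE 0.08, adjusted p = 6.26e-06), but on the deposited scale these differences were -0.23 (adjusted p = 0.0143) and 0.13 (adjusted p = 0.143). That scale moved the median of all features by -0.78 and -0.60 in the same comparisons. With each array centred on its median, the first difference was 0.60.

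MMP25, by its selected feature, read 6.94, 6.81 and 7.08 in SKBR3, 6.65, 6.64 and 6.57 in MDA-MB-231 and 6.51, 6.64 and 6.30 in MDA-MB-468, with the SKBR3 arrays above all others. The differences were 0.33 (SE 0.10, limma adjusted p = 0.0262) and 0.46 (SE 0.10, adjusted p = 0.00286), and on the deposited scale -0.40 and -0.09. The first call was lost without SKBR3 control 1 (adjusted p = 0.0561), SKBR3 control 3 (0.113), MDA-MB-231 control 2 (0.0582) or MDA-MB-231 control 3 (0.0798). With the mean of the gene's 3 features, neither passed (adjusted p = 0.0503 and 0.0568). MMP21, the member that passed the filter through MDA-MB-468, read 4.39, 4.70 and 4.49 in SKBR3 against 5.01, 5.24 and 5.23 in MDA-MB-468. The difference was -0.63 (SE 0.14, adjusted p = 0.00185). Because the filter admitted MMP21 through the line where it is high, this call is not counted as a finding about the members, although it also passed with all features tested (adjusted p = 0.00183).

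**Figure D4:**
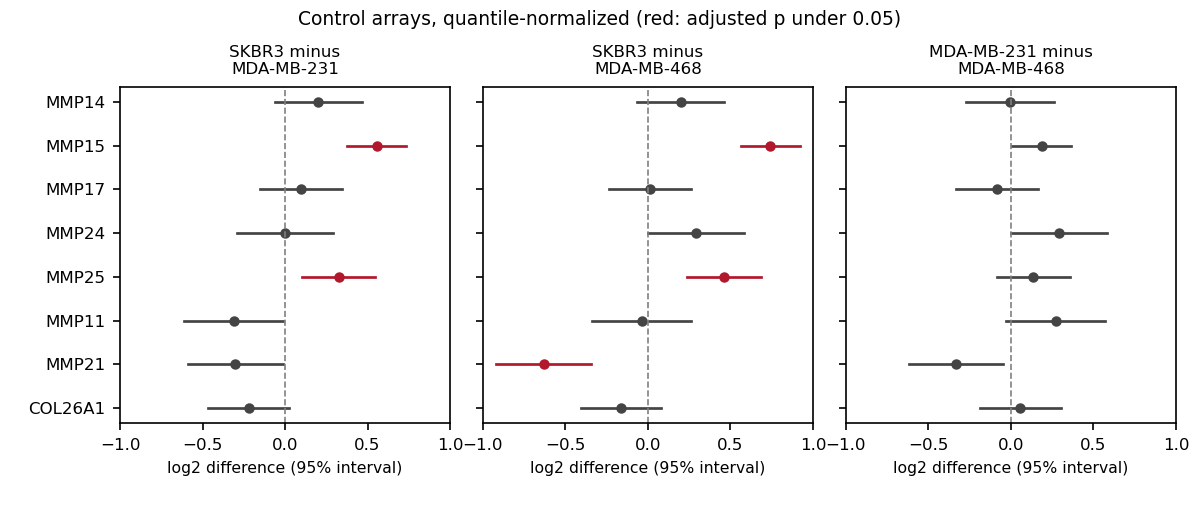
Log2 difference between control arrays of 2 lines after quantile normalization (x axis) for the 8 tested members, with bars for 95% intervals and red for limma adjusted p under 0.05. MMP15 differs by 0.56 and 0.74 for SKBR3 against the other lines here, and by -0.23 and 0.13 on the deposited scale, where MMP25 also turns to -0.40 and -0.09.

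MMP14, MMP17 and COL26A1 did not pass in any pair of lines. Each SKBR3 control array lay above each control array of the other lines for MMP14, with differences of 0.20 in both (adjusted p = 0.234 and 0.239), which became -0.52 and -0.35 on the deposited scale. Among the dim members, with all 53617 features tested, MMP1, MMP16, MMP19 and MMP26 were lower in SKBR3 than in MDA-MB-231 and in MDA-MB-468 in limma. This made 4 members lower against MDA-MB-231, where 13.3% of features were lower. Against MDA-MB-468 it made 5 with MMP21, where 14.3% of features were lower. The call of MMP21 is again not counted as a finding about the members. MMP26 differed by -0.71 and -0.69 (adjusted p = 0.00480 and 0.00510), MMP1 by -0.70 and -0.60 (0.00447 and 0.0101), MMP16 by -0.45 and -0.85 (0.0398 and 0.000675) and MMP19 by -0.55 and -0.44 (0.0187 and 0.0495). The SKBR3 control arrays of MMP1 read 1.82, 2.02 and 2.61 on the normalized scale, and those of MMP26 read 3.29, 3.4 and 3.07 on the same scale. The part of the lines' scaling in these differences was not tested.

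Genes that act with these proteases were described from 5 lists of 85 genes, of which 55 had a named feature and 48 were tested. In each line 0 of the 48 passed, and 0 passed for the difference between lines. Among the protease regulators, TIMP3, an inhibitor bound to the matrix, read 9.15, 9.03 and 9.07 in the MDA-MB-231 controls and 8.95, 8.77 and 8.65 with the ASO, and 8.34, 8.23 and 8.25 against 7.96, 7.82 and 7.88 in MDA-MB-468. The groups did not overlap in either line, and the differences were -0.29 (SE 0.07, limma adjusted p = 0.142) and -0.38 (SE 0.07, adjusted p = 0.130). Taking each line by itself, 6.62% and 7.09% of all features lay below their controls without overlap. The share that did so in both lines was not counted. Its second feature differed by -0.04 and -0.25. In SKBR3 the first feature differed by -0.02 (adjusted p = 0.972). The sheddase ADAM17 differed by -0.27 in MDA-MB-231 (adjusted p = 0.155), by -0.11 in MDA-MB-468 (adjusted p = 0.634) and by 0.16 in SKBR3 (adjusted p = 0.530).

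Among other matrix genes, TNC, which encodes the glycoprotein tenascin-C, read 7.11, 7.18 and 7.10 in the SKBR3 controls and 8.30, 7.34 and 7.78 with the anti-LINC01269 ASO. Its ASO arrays lay above all controls in each of the 3 lines, with differences of 0.68, 0.60 and 0.49 in SKBR3, MDA-MB-231 and MDA-MB-468 that did not pass (limma adjusted p = 0.383, 0.270 and 0.389). Line by line, 5.95%, 7.26% and 6.92% of all features lay above their controls in this way. The share that did so in all 3 lines was not counted, and TNC was picked after its values were seen. In the adhesion machinery, PTK2, which encodes focal adhesion kinase, differed by -0.51 in MDA-MB-231 and -0.39 in MDA-MB-468 (adjusted p = 0.165 and 0.334), again without overlap, and by -0.27 with overlap in SKBR3 (adjusted p = 0.581). Below their controls without overlap were 6.62% of all features in MDA-MB-231 and 7.09% in MDA-MB-468. Among collagen-making genes, the cross-linking enzyme gene LOX differed by 0.41 in SKBR3, -0.14 in MDA-MB-231 and 0.35 in MDA-MB-468 (adjusted p = 0.437, 0.867 and 0.410). Of the list of other integrins and MMP23B, only MMP23B had a named feature, and it differed by 0.03, 0.00 and 0.03 in SKBR3, MDA-MB-231 and MDA-MB-468. Medians of the lists with at least 10 tested members lay between -0.07 and 0.05 in the 3 lines.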

How the data were processed

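RNA of 18 cell line samples was hybridised to Affymetrix Human Gene 2.0 ST arrays. Per the submitters' processing notes, the authors used Transcriptome Analysis Console. Not given in the sources used here are its version, its normalization and the build of the genome. The log2 scale of the deposited table was inferred from its range, 0.41 to 13.84, since no header states it. Of 53617 features, 16098 carry 1 symbol, 0 carry several and 37519 carry none here. Gene names of the 19 members were matched to RefSeq (GRCh38.p14).

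Tests used limma 3.58.1 in R 4.3.3, with a group-means model on 18 arrays, an intensity trend, 12 residual degrees of freedom and Benjamini-Hochberg adjustment over 29855 features at 0.05, two-sided. Line levels were compared after quantile normalization. Members, lists, the filter and the naming rule (smallest p-values in each direction, largest percentiles, groups that do not overlap, and a fixed list of well-known genes) were chosen with earlier results of these data known. An alternative added after seeing the data used the features of MMP24 and MMP25 that lie among plus-strand neighbours. They are called plus-strand features below for short, although their own strand is not given. The examples given outside the members were picked, after their values were seen, among genes the rule named. Precision is limited by 3 arrays per group. The tests were checked on simulated arrays of 29855 genes. Among genes left unchanged there, 17 were called in SKBR3, 11 in MDA-MB-231 and 7 in MDA-MB-468. Genes recovered at 1.5-, 2- and 3-fold were 38, 60 and 63 in SKBR3 and 40, 55 and 62 in MDA-MB-231. In MDA-MB-468 they were 35, 59 and 64. False calls were thus above the 0.05 share aimed at in SKBR3 and MDA-MB-231 and below it in MDA-MB-468. Alternatives covered the filter, scaling, variance prior, arrays fitted, replicate block, feature choice and each array left out.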

Additional observations from a re-analysis of the deposited data

How the results depend on the processing

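In the ASO comparisons 0 members were called under every alternative run, in each line and for the difference between lines. The replicate numbers did not pair the arrays: same-number correlations of deviations ran from -0.12 to 0.10, and with the replicate block 0 members were called in each comparison. The members' median for the difference between lines ran from -0.015 to 0.091 with arrays left out in turn. Control-level counts moved more. On the deposited scale 4 members differed between MDA-MB-231 and MDA-MB-468, 8 between SKBR3 and MDA-MB-231 and 5 between SKBR3 and MDA-MB-468; without the filter the SKBR3 counts were 6 and 7; with the mean of a gene's features they were 1 for MDA-MB-231 minus MDA-MB-468 and 1 for SKBR3 minus MDA-MB-231; with plus-strand features the latter was 1, and with arrays left out 1 to 2.

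Signs also turned, in ASO differences that never passed. Quantile normalization gave COL26A1 values of -0.0017 in MDA-MB-231, -0.00042 in MDA-MB-468 and -0.0013 for their difference, and gave -0.0056 for MMP17 in MDA-MB-468. The mean of features gave -0.035 for MMP24 in MDA-MB-468 and 0.028 for MMP25 between lines. Plus-strand features gave 0.076, -0.0086 and -0.13 for MMP24 in SKBR3, MDA-MB-231 and MDA-MB-468. With arrays left out in turn, SKBR3 ranges were -0.14 to 0.10 (MMP14), -0.0090 to 0.078 (MMP15), -0.12 to 0.076 (MMP17) and -0.15 to 0.0032 (MMP25). MDA-MB-231 ranges were -0.086 to 0.096 (COL26A1), -0.22 to 0.045 (MMP11) and -0.10 to 0.11 (MMP21). MDA-MB-468 ranges were -0.078 to 0.052 (COL26A1), -0.13 to 0.060 (MMP11), -0.062 to 0.071 (MMP14), -0.051 to 0.097 (MMP17) and -0.087 to 0.029 (MMP21). Ranges for the difference between lines were -0.091 to 0.090 (COL26A1), -0.16 to 0.10 (MMP11) and -0.089 to 0.12 (MMP21).

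Among control levels, the deposited scale gave -0.52 (MMP14), -0.23 (MMP15), -0.65 (MMP17), -0.72 (MMP24) and -0.40 (MMP25) for SKBR3 minus MDA-MB-231, -0.35 (MMP14), -0.55 (MMP17), -0.26 (MMP24) and -0.089 (MMP25) for SKBR3 minus MDA-MB-468, and 0.17 (MMP14) and 0.10 (MMP17) for MDA-MB-231 minus MDA-MB-468. Median centring gave 0.0038 for MMP11 in SKBR3 minus MDA-MB-468. It also called MMP24 in that comparison (0.38, adjusted p = 0.0310), as did leaving out SKBR3 control 2 (0.42, adjusted p = 0.0365). The mean of features gave -0.013 for MMP25 in MDA-MB-231 minus MDA-MB-468 and -0.21 for MMP24 in SKBR3 minus MDA-MB-231, where its plus-strand feature gave -0.42. With arrays left out, ranges were -0.026 to 0.15 (COL26A1) and -0.059 to 0.026 (MMP14) for MDA-MB-231 minus MDA-MB-468, -0.075 to 0.13 (MMP24) for SKBR3 minus MDA-MB-231, and -0.11 to 0.013 (MMP11) and -0.039 to 0.083 (MMP17) for SKBR3 minus MDA-MB-468. The cause of the turns in sign was not tested. Dim features limit what can be seen for 11 of the 19 members.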
